A study of Homo sapiens with 6 samples.

Results

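The 9 genes described here encode the enzymes that make phosphatidylcholine and its precursor phosphatidylethanolamine: PEMT, PCYT1A, PCYT2, CHKA, CHKB, CHPT1, CEPT1, ETNK2 and PISD. They are 9 of 19974 protein-coding genes on chromosomes 1 to 22 and X. For each gene, every H4K5la peak that overlapped its RefSeq span plus 5 kb on either side was taken, which gave 27 and 29 peaks in the lactate libraries and 40 and 45 in the control libraries. H4K5la is histone H4 lactylated at lysine 5, and it was mapped by ChIP-seq with the antibody PTM-1407RM in PLC/PRF/5, an established human hepatocellular carcinoma line. The lactate group (replicates 2 and 3) was cultured with 20 mM lactate for 24 h, and the control group (replicates 2 and 3) was left untreated. PEMT was selected on its peaks in these same lists, where an earlier look placed it among the leading genes with a peak near a gene end in both control libraries and no lactate library. By the merged regions and gene span used here, no PEMT region held by both control libraries alone lay within 5 kb of either end. The other genes were added as members of its pathway with results of these lists known. The values below are therefore a description, with no test on any of the 9 genes.

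Phosphatidylcholine is the most abundant membrane phospholipid of mammalian cells. In the CDP-choline route, choline is phosphorylated by a choline kinase, activated with CTP and joined to diacylglycerol, and a parallel route starts from ethanolamine. Hepatocytes also methylate phosphatidylethanolamine to phosphatidylcholine, a reaction of PEMT that feeds bile and lipoprotein secretion.

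The whole lists held 37951 and 38402 peaks in the lactate libraries and 52215 and 52959 in the control libraries. Summed over the windows of all coding genes, peaks covered 17.9 and 17.8 Mb in the lactate libraries, against 34.3 and 34.9 Mb in the control libraries, a ratio of 0.515. With 6 possible assignments of the 4 libraries, the exact permutation test (two-sided) gave p = 0.333, the smallest value that it can give. Nothing in the labels says that the replicates came from separate cultures, so the spread between them may be technical. Of 15 hepatocyte and hepatocellular carcinoma marker genes, 3 had a peak in all 4 libraries, among them HNF4A and APOA1, and 9 had none, among them genes for secreted liver proteins. The other 3 had peaks in other combinations of libraries. Over all coding genes 33.0% had a peak in all 4 libraries and 40.6% had none. A peak list does not measure expression, so these counts neither check nor dispute the cell type.

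The RefSeq promoter table (GRCh38.p14) lists 3 transcription starts for PEMT, all on the minus strand of chromosome 17. Their windows, from 250 bases before to 50 bases after each start, are shown because no peak of any library overlapped them although peaks covered much of the gene downstream. Capitals mark the GC box GGGCGG and the E-box CACGTG, each searched on both strands.

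PEMT start window at chr17:17591659-17591958, minus strand: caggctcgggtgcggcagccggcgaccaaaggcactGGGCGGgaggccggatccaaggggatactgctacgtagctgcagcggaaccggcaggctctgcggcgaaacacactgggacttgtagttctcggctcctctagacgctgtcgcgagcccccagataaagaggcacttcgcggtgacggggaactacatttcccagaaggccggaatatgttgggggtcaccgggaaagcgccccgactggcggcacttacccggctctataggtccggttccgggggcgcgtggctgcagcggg
PEMT start window at chr17:17582397-17582696, minus strand: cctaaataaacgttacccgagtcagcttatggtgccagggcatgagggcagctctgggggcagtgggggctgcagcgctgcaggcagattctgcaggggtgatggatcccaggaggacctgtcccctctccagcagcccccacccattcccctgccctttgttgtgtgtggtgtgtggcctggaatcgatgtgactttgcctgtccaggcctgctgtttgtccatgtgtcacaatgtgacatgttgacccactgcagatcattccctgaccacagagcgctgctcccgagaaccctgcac
PEMT start window at chr17:17577447-17577746, minus strand: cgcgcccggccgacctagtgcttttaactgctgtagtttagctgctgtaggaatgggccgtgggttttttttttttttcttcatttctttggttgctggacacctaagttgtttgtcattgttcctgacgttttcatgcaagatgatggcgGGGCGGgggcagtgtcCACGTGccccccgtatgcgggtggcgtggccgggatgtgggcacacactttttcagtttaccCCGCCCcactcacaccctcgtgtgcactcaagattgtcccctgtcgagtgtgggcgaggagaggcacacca

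The windows are listed from the most upstream start to the most downstream one. The GC box is present in 2 of the 3 windows, as in 56.3% of the 22156 start windows of coding genes. The E-box is in the most downstream window alone, as in 8.34% of all windows. These matches describe the letters of the window and not binding.

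At the most upstream start window the nearest peak lay 6636 and 27639 bp away in lactate replicates 2 and 3, and 15229 and 6629 bp away in control replicates 2 and 3. The most downstream window was closer, at 2080 and 13427 bp in the lactate libraries and 1017 and 557 bp in the control libraries. Over all members with a listed start, 0 of 13 windows in 8 genes overlapped a peak of any library. Among all coding genes 13.7% of windows did. With 13 windows the 0 is not read as a result. CHKA has no entry in the table.

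PEMT, which methylates phosphatidylethanolamine, carried the most H4K5la peak coverage of the 9 genes per length. It spans 86580 bp of chromosome 17, from 17505563 to 17592142 (hg38). Its window held 19 and 17 peaks in lactate replicates 2 and 3, and 22 and 25 peaks in control replicates 2 and 3. These peaks covered 14000 and 13428 bp in the lactate libraries, which is 14.5% and 13.9% of the window, against 32070 and 32584 bp in the control libraries, which is 33.2% and 33.7%. Both lactate libraries lay below both control libraries. The mean was 13714 ± 404 bp with lactate and 32327 ± 363 bp in control (SD, n = 2 each), a ratio of 0.424.

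**Figure D1:**
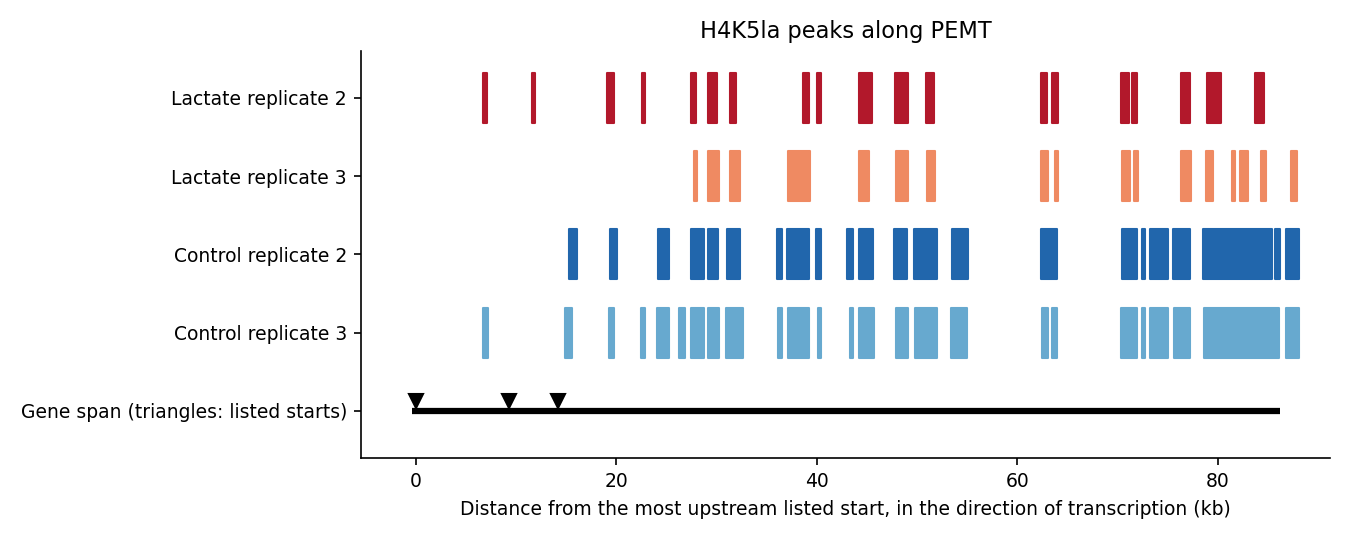
H4K5la peaks along PEMT in each library, with the distance in kb from the most upstream listed start on the x axis and 1 row per library. Bars are peaks, the black line is the gene span and triangles are the 3 listed starts. The control row shows a peak of 6843 or 7455 bp at the 3' end, where the lactate rows show separate narrower peaks.

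Ranked among all 19974 coding genes by covered bp per kb of window, PEMT stood at 350 and 432 in the lactate libraries and at 269 and 281 in the control libraries. The widest peak was 1386 and 2111 bp in the lactate libraries, against 6843 and 7455 bp in the control libraries. The median peak width was 669 and 760 bp with lactate and 1278.5 and 1146 bp in control. Peaks were thus narrower as well as fewer, and the groups did not overlap in any of these measures.

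The lactate peaks of PEMT lay almost wholly where control peaks lay. Of the bases covered in lactate replicates 2 and 3, 94.4% and 98.8% were also under a peak of a control library. Of the bases covered in control replicates 2 and 3, 51.8% and 52.8% were under a peak of a lactate library. The peaks of the 4 libraries merged into 25 regions. All 4 libraries had a peak in 11 of them, both control libraries alone in 7, and other combinations in 7. None was held by both lactate libraries alone.

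Coverage was lowest at the 5' side of the gene in every library. In the first of 3 equal parts of 28860 bp along the direction of transcription, peaks covered 7.63% and 1.35% in the lactate libraries, against 12.4% and 17.3% in the control libraries. In the middle part they covered 20.7% and 24.4% with lactate, against 45.4% and 43.1% in control. In the last part the values were 20.2% and 18.7% with lactate, against 49% and 48.2% in control. The flank of 5 kb beyond the 3' end held 0 and 602 covered bp in the lactate libraries and 1255 and 1246 bp in the control libraries, and the 5' flank held none.

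The broadest domain of PEMT lay over its 3' end, from 17505558 to 17513204 of chromosome 17. Lactate replicate 2 had peaks of 842 and 1386 bp there, and lactate replicate 3 had peaks of 523, 760, 312 and 722 bp. Control replicate 2 had peaks of 474 and 6843 bp, and control replicate 3 had 1 peak of 7455 bp. The domain was thus broken into pieces in both lactate libraries rather than missing. Exons and introns are not in the gene table used here and were not assigned.

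The peak caller's fold enrichment and p-value together fix 2 further quantities at each summit, the ChIP pileup in reads scaled to the depth of the background, and the local background itself. Whole numbers of ChIP reads were recovered for 100% of the peaks of every library. The smallest local background in a list, which marks the genome-wide floor, was 0.795 and 0.770 reads in the lactate libraries and 0.837 and 0.836 reads in the control libraries. At the 3' domain of PEMT the summit with the highest pileup had 29.2 and 27.4 scaled reads in lactate replicates 2 and 3, against 24.6 and 23.2 in control replicates 2 and 3. The local background at the same summits was 3 and 9 reads in the lactate libraries, against 0.837 and 1 reads in the control libraries. The authors' fold enrichment there was 7.54 and 2.84 with lactate and 13.9 and 12.1 in control. These lactate summits lie at different places, 17512539 in replicate 2 and 17507041 in replicate 3, and the control summits at 17507703 and 17507262. Near 17507041 the lactate background was 7 and 9 reads in replicates 2 and 3, with folds of 3.45 and 2.84. Near 17512539 it was 3 and 3 reads, with folds of 7.54 and 5.95. In scaled reads the highest pileup of this domain was thus higher in both lactate libraries. The fold at those summits was lower and the local background higher. In unscaled ChIP reads the summits of highest pileup had 34 and 36 with lactate, against 35 and 31 in control, so the groups overlapped. The scaling factor differs by library, so scaled reads are not a common unit between the groups. The part of the local background in the narrower peaks was not tested. The sources used here do not say which reads the caller took as background, and the input libraries were not analysed here, so whether the lactate input itself was high at this domain was not tested either. The fold and the background are to be read with that limit.

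**Figure D2:**
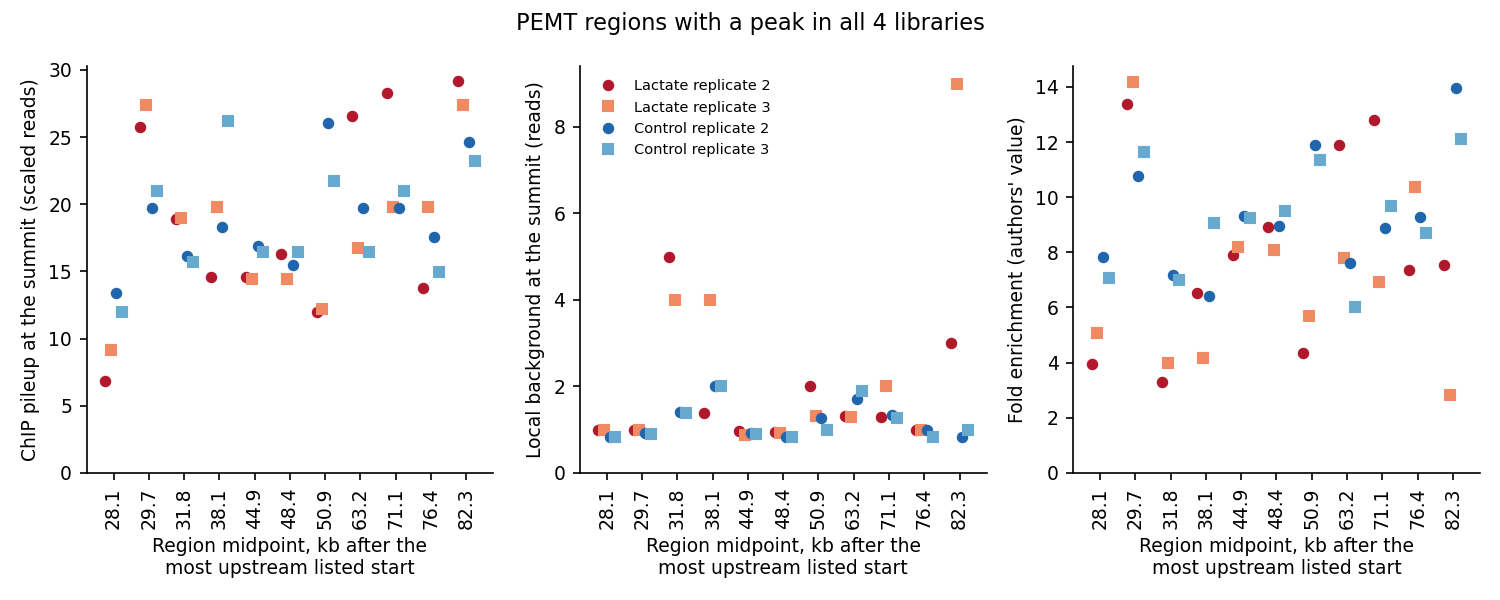
ChIP pileup in scaled reads, local background in reads and the authors' fold enrichment on the y axes for the 11 PEMT regions with a peak in all 4 libraries, ordered on the x axis by distance in kb from the most upstream listed start. Points are single libraries, each at its summit of highest pileup in the region. At the right-most region the lactate background of 3 and 9 reads stands above the control values of 0.837 and 1. The lactate summits of that region lie at different places of the domain.

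The regions of PEMT did not move together. Of the 11 regions in all libraries, the local background was higher in both lactate libraries in 6 and lower in both in 1. Over all 20499 such regions of the series, it was higher in both lactate libraries in 44.7% and lower in both in 39.1%. Among the 1761 of these with control peaks of at least 2 kb it was higher in 75.2% and lower in 6.42%. The fold enrichment was lower in both lactate libraries in 6 of the 11 PEMT regions and higher in both in 2, against 34.7% and 23.1% of all regions. The scaled pileup was higher in both lactate libraries in 3 of the 11 and lower in both in 3, against 35.3% and 18.2% of all regions. Among the regions with control peaks of at least 2 kb, the scaled pileup was higher with lactate in 50.1% and lower in 9.60%, and the fold was higher in 5.57% and lower in 65.4%. The pileup counts are not in a common unit, since the scaling factor was larger in both lactate libraries (0.858 and 0.760) than in both control libraries (0.703 and 0.748). Unscaled reads can overlap where scaled ones do not, as from 17559051 to 17560744, with 22 and 25 reads with lactate and 23 and 21 in control. The series has 1 input library per group. The 2 libraries of a group often had almost equal backgrounds where their summits lay close together. At the PCYT1A region from 196232119 to 196232581 they were 0.975 and 0.945 reads with lactate and 1.079 and 1.077 in control. This did not hold at every close pair of summits. From 17551281 to 17551768 the control backgrounds were 2 and 3 reads, with summits at 17551483 and 17551486. The background values of a group may therefore not be independent, and a shift in both is not shown to be agreement of replicates.

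One region inside the gene had a higher pileup and a higher fold with lactate. It lies from 17561498 to 17562568, about 29.7 kb after the most upstream start, and its fold enrichment was 13.4 and 14.2 in the lactate libraries, against 10.8 and 11.6 in the control libraries. Its pileup was 25.7 and 27.4 scaled reads with lactate, against 19.7 and 21.0 in control. The background was near the floor in all 4, at 1 and 1 reads with lactate and 0.920 and 0.887 reads in control. A second region, from 17539715 to 17541990, was weaker with lactate, with a pileup of 12.0 and 12.2 scaled reads against 26.0 and 21.7 in control, and backgrounds of 2 and 1.31 reads against 1.27 and 1. The region of highest fold among the 7 in both control libraries alone, from 17536620 to 17538330, had control folds of 11 and 13.2 and no lactate peak. These 3 regions were chosen after their values were seen.

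PISD, the mitochondrial decarboxylase that makes phosphatidylethanolamine from phosphatidylserine, had the next clearest separation. It spans 44074 bp of chromosome 22, from 31618491 to 31662564. Peaks covered 1123 and 1913 bp of its window in the lactate libraries, against 5339 and 5156 bp in the control libraries, a ratio of 0.289. The number of peaks was 3 and 4 with lactate and 7 and 7 in control, and both lactate libraries lay below both control libraries. All of these peaks sat in the last of 3 equal parts of the gene or in the 3' flank, at least 36159 bp from the window of either listed start. The 3' flank overlaps SFI1, a centrosomal protein gene, which held the summit of 2 peaks in each lactate library and of 3 and 4 peaks in the control libraries.

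**Figure D3:**
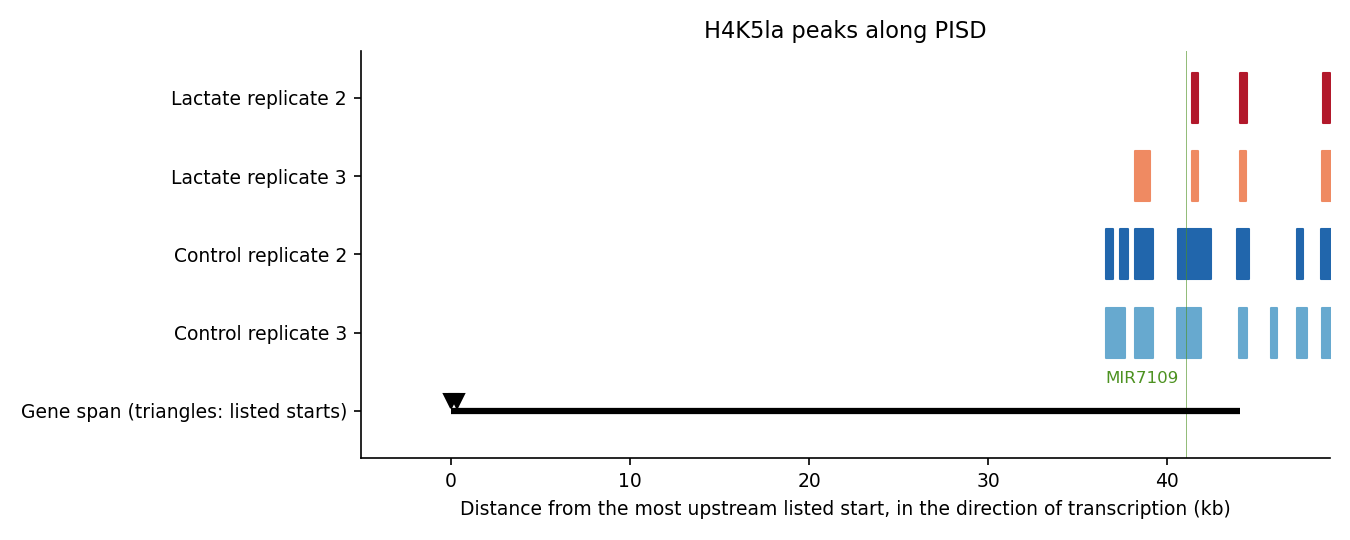
H4K5la peaks along PISD in each library, with the distance in kb from the most upstream listed start on the x axis and 1 row per library. Bars are peaks, cut at the window's edge, the black line is the gene span, triangles are the 2 listed starts and the green line is the MIR7109 hairpin. The hairpin runs through a peak in both control rows and through none in the lactate rows.

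A microRNA gene, MIR7109, lies inside PISD under one of its shared regions, and its mature sequences are shown because the control peaks cover the hairpin and the lactate peaks stop short of it. The hairpin lies at chr22:31621467-31621531 on the minus strand, and capitals mark the seed (bases 2 to 8).
hsa-miR-7109-5p: cUGGGGGGaggagacccugcu
hsa-miR-7109-3p: cAAGCCUCuccugcccuuccag
The arms have different seeds. The hairpin lay wholly inside a peak of 1869 bp in control replicate 2 and of 1304 bp in control replicate 3. In lactate replicates 2 and 3 the peaks of the same region were 357 and 324 bp wide and ended 273 and 293 bp from the hairpin. Their summits stayed within the control peaks, with pileups of 12.9 and 17.5 scaled reads with lactate against 12.7 and 23.9 in control.

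At the other shared PISD regions the pileup overlapped between groups while the local background did not. From 31612844 to 31614007 the pileup was 24.0 and 25.9 scaled reads with lactate and 23.9 and 26.9 in control. The local background there was 3 and 5.00 reads with lactate, against 1.17 and 1.2 reads in control, and the fold enrichment was 6.26 and 4.48 against 11.5 and 12.7. From 31617999 to 31618693 the background was 3 and 3 reads with lactate, against 1 and 1 reads in control. The part of the background in the lower PISD coverage was not tested, and the background values of a group may not be independent, as said for PEMT.

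PCYT1A, which activates phosphocholine with CTP and sets the pace of the CDP-choline route, had coverage that overlapped between the groups. The gene spans 53359 bp of chromosome 3, from 196234368 to 196287726. Peaks covered 1404 and 2086 bp in the lactate libraries, against 2184 and 1922 bp in the control libraries. The ratio of means was 0.850, and without lactate replicate 2 it was 1.02, so the direction rests on that library. With 20 kb on either side of the gene it was 0.526, and both lactate libraries then lay below both control libraries. The peaks were narrow in all 4 libraries, at most 500 and 540 bp with lactate and 691 and 747 bp in control.

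The summits of PCYT1A differed in both directions. In all 3 of its regions held by every library the fold enrichment was higher in both lactate libraries than in both control libraries, where 23.1% of all such regions show this. At the region from 196272815 to 196273314, about 14.7 kb after the listed start, the fold was 17.8 and 12.9 with lactate, against 6.11 and 8.53 in control. The pileup there was 42.0 and 29.7 scaled reads with lactate, against 18.3 and 26.2 in control, and the local background was 1.42 and 1.37 reads against 2.16 and 2.19. At the region from 196235344 to 196235857 the pileup was 24.0 and 23.6 scaled reads with lactate, against 19 and 13.5 in control, with a background of 1 read in all 4 libraries. The remaining region, from 196232119 to 196232581, lies in the neighbouring bile acid transporter gene SLC51A, and its pileup overlapped between groups. A region from 196273746 to 196274529, next to the strongest one, was weaker with lactate. It had no peak in lactate replicate 2 and a fold of 5.37 with a pileup of 11.4 scaled reads in lactate replicate 3, against folds of 6.43 and 7.99 and pileups of 18.3 and 23.2 in control. In the 1 other region a peak was called in lactate replicate 3 and control replicate 2 alone. These are 5 regions of 1 gene and are not replicates of each other.

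**Figure D4:**
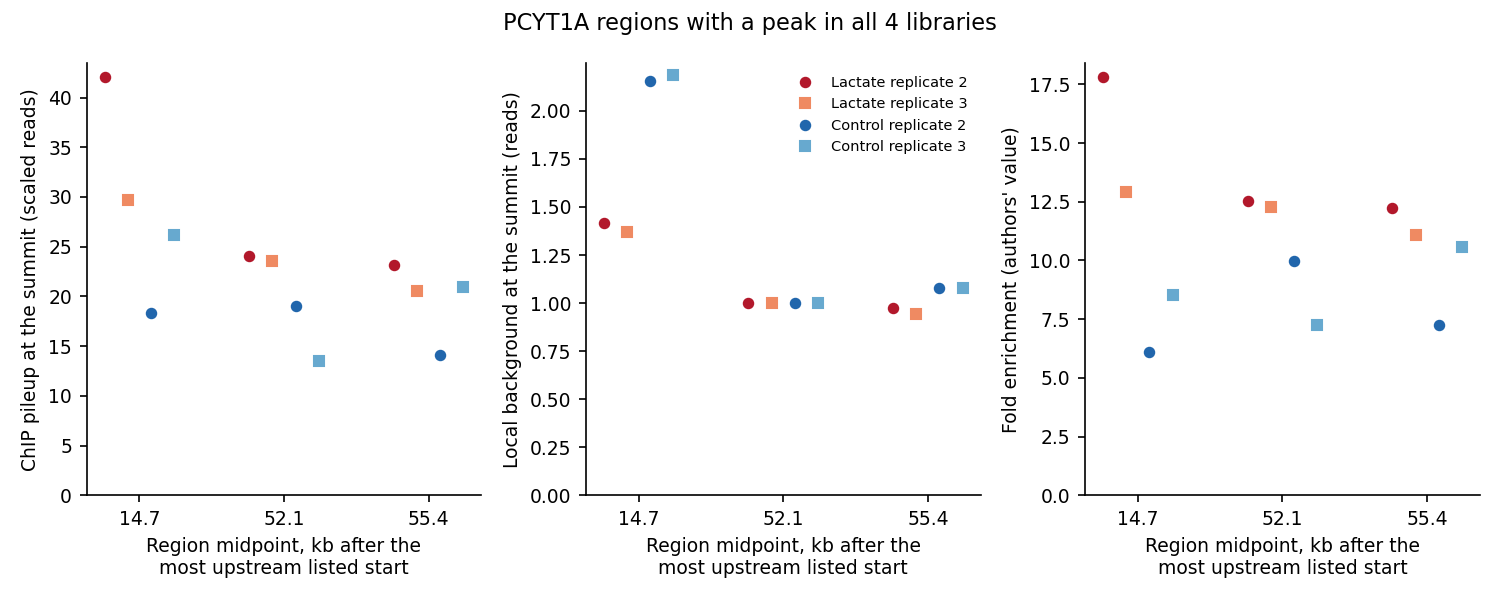
ChIP pileup in scaled reads, local background in reads and the authors' fold enrichment on the y axes for the 3 PCYT1A regions with a peak in all 4 libraries, ordered on the x axis by distance in kb from the listed start. Points are single libraries. In the fold panel both lactate points stand above both control points at each region, with 17.8 and 12.9 against 6.11 and 8.53 at the left-most one.

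PCYT2, which carries out the matching CTP-dependent step of the ethanolamine route, lies on the same chromosome as PEMT, from 81900958 to 81911399 of chromosome 17. Peaks covered 516 and 739 bp of its window with lactate, against 1447 and 2596 bp in control, so the groups did not overlap, and the ratio was 0.310. The control libraries differed from each other, with 2 peaks in replicate 2 and 6 in replicate 3, against 1 and 2 peaks in the lactate libraries. Folds were low throughout, between 2.56 and 3.32 with lactate and between 2.38 and 3.98 in control. The local background was high in all 4 libraries, from 8.20 to 8.87 reads with lactate and from 5.64 to 9.77 reads in control. In control replicate 3, 2 of the peaks had their summit in SIRT7, a deacetylase gene whose span begins within the flank.

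The choline kinases, which carry out the first step of the CDP-choline route, had peaks in the control libraries alone, and all of them in the flanks beside a neighbour. In the window of CHKA, on chromosome 11 from 68052859 to 68121388, the lactate libraries had no peak and the control libraries covered 349 and 868 bp. Those control summits all lay in TCIRG1, which encodes a proton pump subunit. In the window of CHKB, on chromosome 22 from 50578963 to 50582849, the lactate libraries again had no peak, and the control peaks covered 130 and 326 bp at the window's edge. Their summits lay in CPT1B, the muscle carnitine palmitoyltransferase gene. No library had a peak inside CHKA or CHKB themselves.

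CHKB also shows how the choice of 5 kb acts. The control peak that reached into its window was 1140 bp wide in replicate 2 and 418 bp wide in replicate 3, and the first peak outside the window lay 5535 and 5559 bp from the gene in the lactate libraries and 6793 and 5642 bp in the control libraries. Next to PCYT1A the first peaks outside lay 6992 and 6963 bp away with lactate and 5460 and 5450 bp away in control.

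The last enzymes of the pathway were bare. CHPT1, the cholinephosphotransferase, and CEPT1, which makes both phosphatidylcholine and phosphatidylethanolamine, had no peak in any library, as had 40.6% of coding genes. The nearest peak to CEPT1 lay 85.5 and 85.5 kb away in the lactate libraries and 85.5 and 330.4 kb away in the control libraries. The nearest peak to CHPT1 lay 289.6 and 289.8 kb away with lactate, against 9.98 and 9.98 kb in control. Signal too weak to be called would not show in these lists.

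ETNK2, an ethanolamine kinase, had scattered single peaks. They covered 495 and 323 bp of its window on chromosome 1 (gene from 204131062 to 204152044) with lactate, against 493 and 0 bp in control. No 2 libraries shared a region there, and of the 4 peaks only that of lactate replicate 3 lay inside the gene. The ratio of 1.66 became 0.830 without control replicate 3, and 22.7 with the lists cut to equal length, so it carries no direction.

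**Figure D5:**
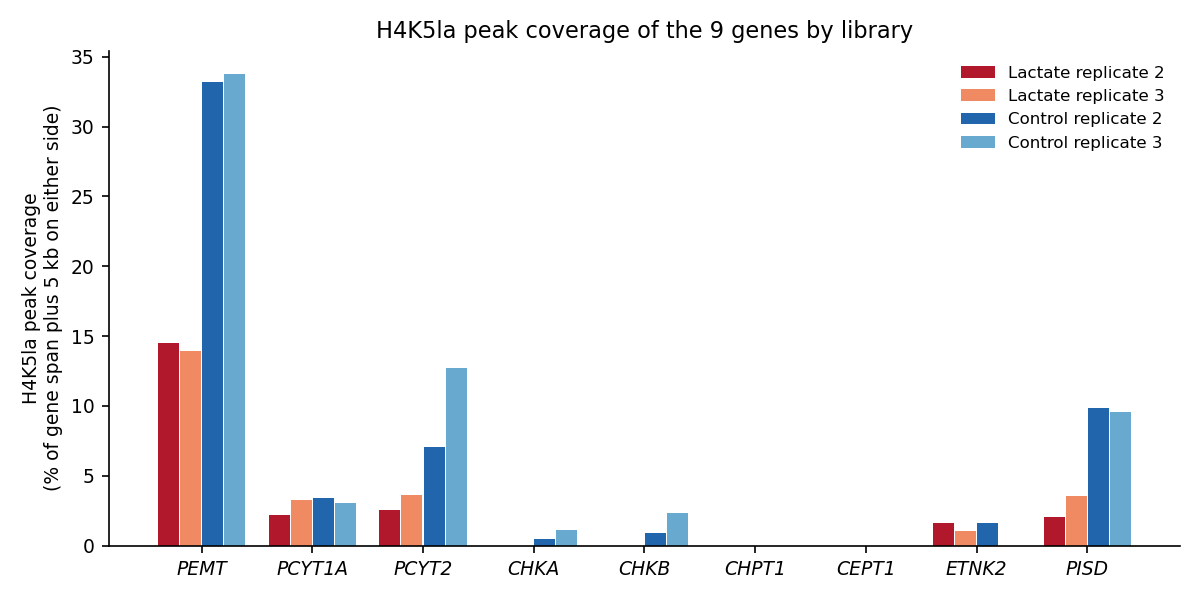
Share of each gene's window (gene span plus 5 kb on either side) that lay under H4K5la peaks, in percent on the y axis, for the 9 genes on the x axis. Bars are single libraries. PEMT stands at 14.5% and 13.9% with lactate and at 33.2% and 33.7% in control, and CHPT1 and CEPT1 are at 0 in all 4.

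Counted over the pathway, covered bp was lower in both lactate libraries than in both control libraries in 5 of the 9 genes (PEMT, PCYT2, CHKA, CHKB and PISD) and higher in both in none. Over all coding genes 32.8% were lower and 3.40% higher by the same rule. Since the members were chosen with these lists known, nothing is read from the difference between these shares. The count was 3 within the gene spans alone, where CHKA and CHKB drop out and the share over all coding genes was 27.5%. It was 7 with 20 kb on either side, where PCYT1A and CHPT1 join and the share was 43.2%. It was 2 (PEMT and PISD) with the lists cut to equal length, where the share over all coding genes was 21%. A peak in all 4 libraries was found in 4 of the 9 genes (PEMT, PCYT1A, PCYT2 and PISD), against 33.0% of coding genes, and in both control libraries alone in 2, against 5.77%. Peaks in both lactate libraries alone were found in 0 of the 9, against 1.11% of coding genes, and other combinations in 1 (ETNK2), against 19.5%. Of the 7 members with any peak 5 were lower in both lactate libraries, against 55.1% of coding genes with any peak, and of the 4 with a peak in all libraries 3 were lower, against 69.6%.

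The genes whose coverage pattern was most like that of PEMT over the 4 libraries were MACROD1, TEKTIP1, CHD5, PEPD and MCF2L. They were the 5 coding genes with the smallest largest difference in log2 of covered bp per kb of window plus 1, which was 0.05 for MACROD1 and 0.09 for MCF2L. PEMT had 145 and 139 bp per kb with lactate and 332.1 and 337 bp per kb in control. MACROD1, an ADP-ribose hydrolase gene on chromosome 11, had 143 and 143 bp per kb with lactate and 321 and 339 bp per kb in control. Such closeness over 4 libraries is a description of level and not of relation.

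Genes around the pathway were read by the same rule. Over all coding genes 32.8% were lower in both lactate libraries and 3.40% higher, and among coding genes with any peak 55.1% were lower. In the group that supplies glycerolipid precursors, 12 of 21 genes (57.1%) had lower coverage in both lactate libraries and 1 had higher. The 21 include 6 genes without a peak, so this share stands beside the 32.8% and not the 55.1%. AGPAT3, an acyltransferase that makes phosphatidate, had 27886 and 27443 covered bp with lactate, against 45124 and 46248 bp in control. AGPAT2, of the same family, had 4672 and 5225 bp with lactate, against 11012 and 13183 bp in control, where its widest peaks were 6606 and 7309 bp. LPIN3, a phosphatidate phosphatase gene, had 2358 and 1115 bp against 7848 and 7496 bp. CDS2, a CDP-diacylglycerol synthase gene, was the 1 gene with peaks in the lactate libraries alone, with 406 and 332 bp, and DGAT2, a triglyceride synthesis gene, had control peaks alone, with 1022 and 364 bp.

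Among genes that remodel or break down phosphatidylcholine, 13 of 23 (56.5%) were lower in both lactate libraries and none was higher. Over all coding genes these shares were 32.8% and 3.40%. LPCAT1, which reacylates lysophosphatidylcholine, had 12402 and 15617 covered bp with lactate, against 35603 and 35692 bp in control, close to PEMT in size. PNPLA7, a lysophospholipase gene, had 7291 and 7186 bp with lactate, against 22299 and 22911 bp in control. PLA2G6, a phospholipase gene, had 3501 and 1110 bp against 8836 and 9375 bp. PLD2, a phospholipase gene, had peaks of 418 and 345 bp in the control libraries alone.

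The other choline and ethanolamine genes were sparser, with 4 of 16 (25%) lower in both lactate libraries and 1 higher. Over all coding genes these shares were 32.8% and 3.40%. PTDSS2, a phosphatidylserine synthase that feeds the PISD reaction, had 2301 and 1894 covered bp with lactate, against 7261 and 6555 bp in control. SLC44A4, of the choline transporter-like family, had 1408 and 1221 bp against 2442 and 3312 bp. FLVCR2 had 404 and 0 bp against 1133 and 972 bp. ALDH7A1, an aldehyde dehydrogenase that can act on betaine aldehyde, was the gene that was higher, with 773 and 739 bp with lactate, against 593 and 675 bp in control.

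Genes that supply or spend the methyl groups used by PEMT had the lowest such share of the 4 lists, with 2 of 15 (13.3%) lower in both lactate libraries and none higher. Over all coding genes these shares were 32.8% and 3.40%. GAMT, the creatine synthesis methyltransferase gene, had no lactate peak and 612 and 606 covered bp in control. In the 4 lists, in the order above, 6 of 21, 6 of 23, 7 of 16 and 7 of 15 genes had no peak in any library. The lists have different sizes and were written with earlier results of these data known, and the shares were not tested against each other.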

How the data were processed

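Peaks were called by the authors in each ChIP library on its own, and no list pools replicates. Trimming, alignment and duplicate removal came first, per the labels' protocols. Trimmomatic 0.38, Bowtie2 2.3.4.2, Picard 2.18.11, MACS2 2.2.6 and the build hg38 are named in the submitters' processing notes. The deposited columns hold positions, a whole-number score, a fold enrichment (a ratio), and −log10 values of p and q, the smallest −log10 q being 2.00 to 2.02. The 2 input libraries were not analysed here. The lists hold no counts, so absolute depth is unknown.

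Covered bp is the part of the peaks inside a gene's window, on the RefSeq table of GRCh38.p14. At each summit, pileup and background were solved from fold = (pileup + 1)/(background + 1) and the Poisson tail, with whole ChIP reads times a factor found per library within 0.001 reads. The factor was 0.858 and 0.760 in the lactate and 0.703 and 0.748 in the control libraries. Between 115 and 208 peaks per library, and 1 in the members' windows, had more than 1 solution, and the closest was taken. The solver was tested on simulated data. Python 3.11.15, pandas 2.3.3, numpy 2.4.6, scipy 1.17.1 and matplotlib 3.10.9 were used.

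The members and lists were chosen with earlier results of these data known. Named genes are the 9 members, the coding genes that overlap their windows (described where they hold a summit), the 5 genes most like PEMT, and from each list up to 3 genes each with the largest fall and the largest gain in covered bp among those whose groups do not overlap, and up to 3 with peaks in both libraries of 1 treatment alone. The alternatives were a −log10 q of at least 5, equal peak numbers, windows of 0 and 20 kb, an overlap rule, joined peaks, left-out libraries and a replicate block. Some genes that this rule names are not reported here.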

Additional observations from a re-analysis of the deposited data

How the results depend on the processing

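The ratio of covered bp over all coding genes lay between 0.505 and 0.649 under every alternative run. Summed over the 9 members it was 0.422, and it was 0.383 with a −log10 q of at least 5, 0.504 with the lists cut to equal length and 0.379 with peaks within 1 kb joined. PEMT stayed between 0.363 and 0.460. The number of members lower in both lactate libraries was 5, where 32.8% of all coding genes were lower. It was 3 at a −log10 q of at least 5 (29.7% of coding genes), 2 with equal numbers of peaks (21%), 3 within the gene spans alone (27.5%), 7 with 20 kb on either side (43.2%), 4 where the larger part of a peak had to lie in the window (32.3%), 5 with joined peaks (32%), and 5 to 6 with a library left out (35.8% to 41.6%). Members with a peak in all libraries numbered 4, and 7 with 20 kb on either side. They numbered 3, without PCYT2, both at a −log10 q of at least 5 and with equal numbers of peaks. Leaving out a library gave 0.511 to 0.520 for all coding genes, 0.410 to 0.433 for the members' sum, 4 to 5 members with a peak in all remaining libraries, 0.684 to 1.02 for PCYT1A and 0.830 to 2.01 for ETNK2. ETNK2 also came to 0.958 with 20 kb on either side, 1 at a −log10 q of at least 5 and 22.7 with equal numbers of peaks, and PCYT1A to 0.526 with 20 kb on either side. PCYT2 and CHKA have no value with equal numbers of peaks, since no control peak was left, and ETNK2 and the choline kinases have none in some other settings for the same reason. The cause of these shifts was not tested. Stricter settings leave fewer peaks, and the part of that in the shifts was not tested either.

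The replicate numbers are shared between groups, but nothing shows that they pair the libraries, and the deviations of same-numbered libraries correlated with r = 0.0363 over 6601 coding genes. With a replicate block the ratio over all coding genes was 0.516 (exact sign-flip test, p = 0.5, the smallest it can give), the members' sum 0.421 and the number of members lower in both pairs 5. With 2 libraries a group no test here can pass a threshold of 0.05. Peaks show where signal passed a threshold, so missing peaks are not missing marks.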
